A study of Homo sapiens with 12 samples.

Results

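The genes described here are 10 chemokines that squamous tumours can make: CXCL1, CXCL2, CXCL3, CXCL8, CXCL10, CXCL11, CXCL16, CCL5, CCL20 and CX3CL1. They were found by matching Ensembl gene IDs to these symbols in both deposited count tables, and all 10 of 10 were present among 60649 gene IDs. The libraries came from xenograft tumours grown from Cal33, a squamous carcinoma line of the head and neck, and there were 12 libraries in 4 groups of 3. In the first experiment, tumours treated with SW-682, a small molecule that inhibits TEAD (labelled smTEADi), were compared with tumours given Vehicle. In the second, tumours labelled pTEADi and DOX+, where a TEAD inhibitor is induced by doxycycline, were compared with Control tumours labelled DOX-. Because only the pTEADi tumours are labelled DOX+, effects of doxycycline and of the inhibitor cannot be told apart. All groups share 1 cell line, and the labels give neither the host animal, its age, doses and times, nor whether libraries of 1 group are separate tumours. The p-values therefore reflect library-to-library spread only, which may be technical. Each library held 13576494 to 15433679 expected counts, and no library repeated another (chi-square per degree of freedom of 7.42 to 34 within groups). Markers of squamous carcinoma cells, among them KRT5 and KRT14, were detected in every group, with values given beside those of other cell types below.

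Chemokines are small secreted proteins that bind receptors on leukocytes and draw them along a gradient. CXCL1, CXCL2, CXCL3 and CXCL8 carry the ELR motif, act on CXCR2 and attract neutrophils. CXCL10 and CXCL11 are induced by interferons and act on CXCR3 of T cells and natural killer cells. CCL5 attracts T cells and monocytes, and CCL20 acts on CCR6. CX3CL1 (fractalkine) and CXCL16 are made as membrane proteins, are shed by ADAM proteases, and bind CX3CR1 and CXCR6. In keratinocytes many of these genes are switched on by NF-kB, AP-1 and interferon-activated factors.

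The promoters of the ELR chemokines are shown because CXCL1, CXCL2 and CXCL3 are close paralogs with different levels, and those of the other genes for comparison. RefSeq promoter sequences (GRCh38.p14) were used for 7 of the 10 genes, which leaves CXCL16, CCL5 and CX3CL1. Against the gene spans given below (Gencode 44), the RefSeq start sites of CXCL2, CXCL3, CXCL8, CXCL11 and CCL20 lie inside the gene. The 150 bases before these sites are partly, or for CXCL11 and CCL20 wholly, from within the gene. The printed windows are the 150 bases before the RefSeq start site, 5′ to 3′ on the strand of the gene. They lie at chr4:73869243-73869392 (CXCL1, plus strand), chr4:74099196-74099345 (CXCL2, minus strand), chr4:74038690-74038839 (CXCL3, minus strand), chr4:73740419-73740568 (CXCL8, plus strand), chr4:76023498-76023647 (CXCL10, minus strand), chr4:76036071-76036220 (CXCL11, minus strand) and chr2:227813692-227813841 (CCL20, plus strand). Capitals mark matches to the kB consensus of NF-kB or to its 9-base core GGAATTTCC, on either strand.
CXCL1: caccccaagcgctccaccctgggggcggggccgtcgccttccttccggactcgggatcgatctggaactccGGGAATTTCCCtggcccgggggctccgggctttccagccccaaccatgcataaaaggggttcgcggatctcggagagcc
CXCL2: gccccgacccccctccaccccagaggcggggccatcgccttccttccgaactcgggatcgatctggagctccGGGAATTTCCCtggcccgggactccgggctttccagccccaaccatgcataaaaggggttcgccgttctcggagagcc
CXCL3: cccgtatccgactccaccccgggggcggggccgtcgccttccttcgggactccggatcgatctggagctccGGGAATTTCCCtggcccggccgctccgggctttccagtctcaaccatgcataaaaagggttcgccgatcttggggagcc
CXCL8: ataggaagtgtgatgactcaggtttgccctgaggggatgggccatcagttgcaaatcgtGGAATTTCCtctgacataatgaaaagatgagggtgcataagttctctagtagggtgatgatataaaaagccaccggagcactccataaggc
CXCL10: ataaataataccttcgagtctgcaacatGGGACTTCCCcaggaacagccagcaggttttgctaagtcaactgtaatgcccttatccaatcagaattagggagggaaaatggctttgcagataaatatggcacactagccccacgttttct
CXCL11: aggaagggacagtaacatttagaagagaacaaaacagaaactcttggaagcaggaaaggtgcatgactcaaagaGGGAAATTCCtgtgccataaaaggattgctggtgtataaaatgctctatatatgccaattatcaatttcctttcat
CCL20: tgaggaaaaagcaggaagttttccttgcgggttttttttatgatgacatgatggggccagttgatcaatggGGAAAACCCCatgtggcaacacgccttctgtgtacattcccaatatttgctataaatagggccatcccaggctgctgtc
When these windows were aligned, CXCL1 and CXCL2 were 88.7% identical, CXCL1 and CXCL3 88.1%, and CXCL1 and CXCL8 45.1%.

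The search covered 250 bases before each start site and both strands. CXCL1, CXCL2 and CXCL3 each held the same kB match, GGGAATTTCC, which began 79, 78 and 79 bases before the start site and overlapped a second match on the other strand. That sequence of 10 bases occurred in 0.142% of 35114 RefSeq promoter windows of this length. CXCL8 had no match to the kB consensus and held the 9-base core, which was chosen after the sequences were seen and lay in 0.413% of windows. The core also lay within the kB matches of CXCL1, CXCL2 and CXCL3. On the other strand, it lay within 1 kB match of CXCL10 and that of CXCL11. CXCL10 had 2 kB matches, 1 of them upstream of the printed window, and CXCL11 and CCL20 had 1 each; the kB consensus lay in 5.21% of all windows. The AP-1 sequence TGANTCA, found in 6.57% of windows, was present in CXCL8 and CXCL11. The interferon response element core, GAAA and GAAA with any 2 bases between them, found in 3.02%, was present in CXCL10 only among these 7 windows. The TEAD sequence GGAATG, found in 11.9%, matched CCL20 only among them. No AP-1, interferon or TEAD match overlapped a kB match. A match describes letters and not binding.

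**Figure D1:**
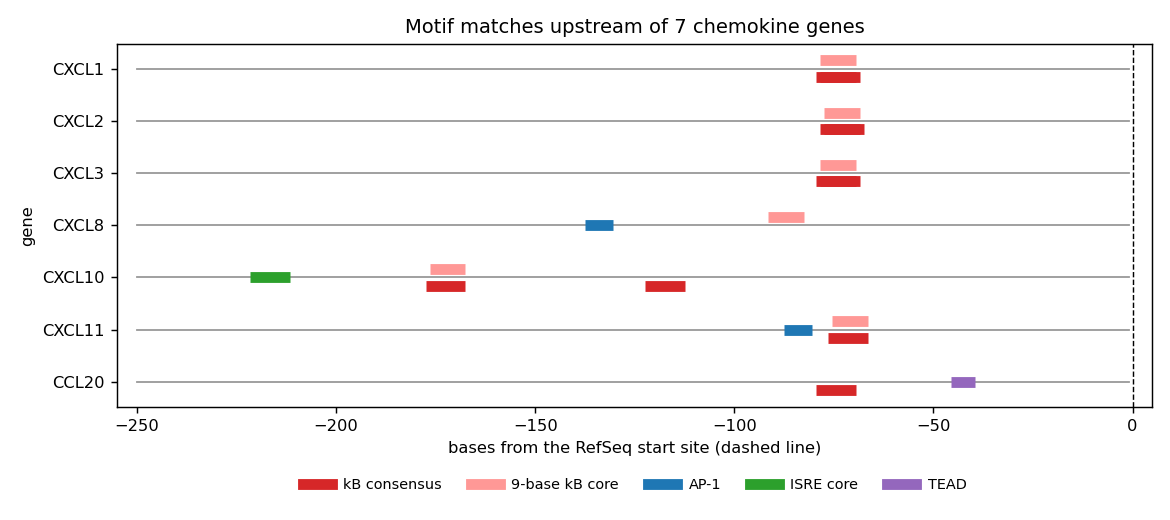
Positions of motif matches in the 250 bases before the RefSeq start site of 7 chemokine genes (horizontal axis, bases from the start site; 1 row per gene; bars span the matched bases). The kB match of CXCL1, CXCL2 and CXCL3 begins 78 or 79 bases before the start, and only CCL20 has a TEAD match.

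Levels per length, in CPM (counts scaled to library size) per kilobase of merged exons, put the genes in 2 tiers. With Vehicle, CCL5 (20.2 ± 3.64, SD, n = 3), CX3CL1 (19.1 ± 3.35) and CXCL16 (17.3 ± 0.401) were highest, and their libraries overlapped. CXCL1 followed at 1.02 ± 0.348, then CXCL8 (0.538 ± 0.0805) and CCL20 (0.365 ± 0.107), which overlapped, and CXCL10 (0.198 ± 0.0938). CXCL11, CXCL3 and CXCL2 were lowest, at 0.0781 ± 0.0387, 0.0630 ± 0.0323 and 0.0502 ± 0.0506, and overlapped. In Control the order was CCL5 (49.5 ± 22.4), CX3CL1 (30.4 ± 11.2), CXCL16 (16.6 ± 0.837), CXCL1 (4.66 ± 2.96), CXCL8 (2.73 ± 2.84), CCL20 (1.15 ± 0.816), CXCL2 (0.289 ± 0.414), CXCL10 (0.260 ± 0.155), CXCL11 (0.146 ± 0.153) and CXCL3 (0.0854 ± 0.0985). Neighbours overlapped except CX3CL1 with CXCL16 and CXCL16 with CXCL1. With either inhibitor CXCL16 stood first on this measure, at 15.3 ± 0.564 with SW-682 and 18.7 ± 2.14 with pTEADi. It lay above every CX3CL1 and CCL5 library of its group. The order and overlap of these 3 genes depend on the length used. Merged exons of CX3CL1 span 5960 bases and its reference transcript 3285, against 2793 and 2324 for CXCL16 and 1364 and 1299 for CCL5.

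No member was called higher with either inhibitor. With SW-682, CX3CL1, CCL5 and CXCL1 fell, 3 of the 6 members with enough counts to test; over all 14829 genes tested, 5.5% were called and 3.48% were called lower. With pTEADi, CX3CL1, CCL5, CXCL1, CXCL8 and CCL20 fell, 5 of 6 tested, where of 14705 genes 26.3% were called and 13.6% were called lower. In each experiment 5 of the 6 tested members were lower in every treated library than in every control library, as were 17.3% (SW-682) and 21.9% (pTEADi) of the genes tested. CXCL16 passed in neither comparison. CXCL2, CXCL3, CXCL10 and CXCL11 had 0 to 15 counts per library and did not pass the filter on low counts in any comparison. The median log2 fold change (treated over control) of the 6 tested members was -1.04 with SW-682 and -2.23 with pTEADi, where the medians of all tested genes were 0.01 and 0.00. Calls rest on edgeR's quasi-likelihood test with p-values adjusted over all genes (Benjamini-Hochberg, threshold 0.05). In whole tumours, fewer cells of a type and less RNA per cell cannot be told apart.

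**Figure D2:**
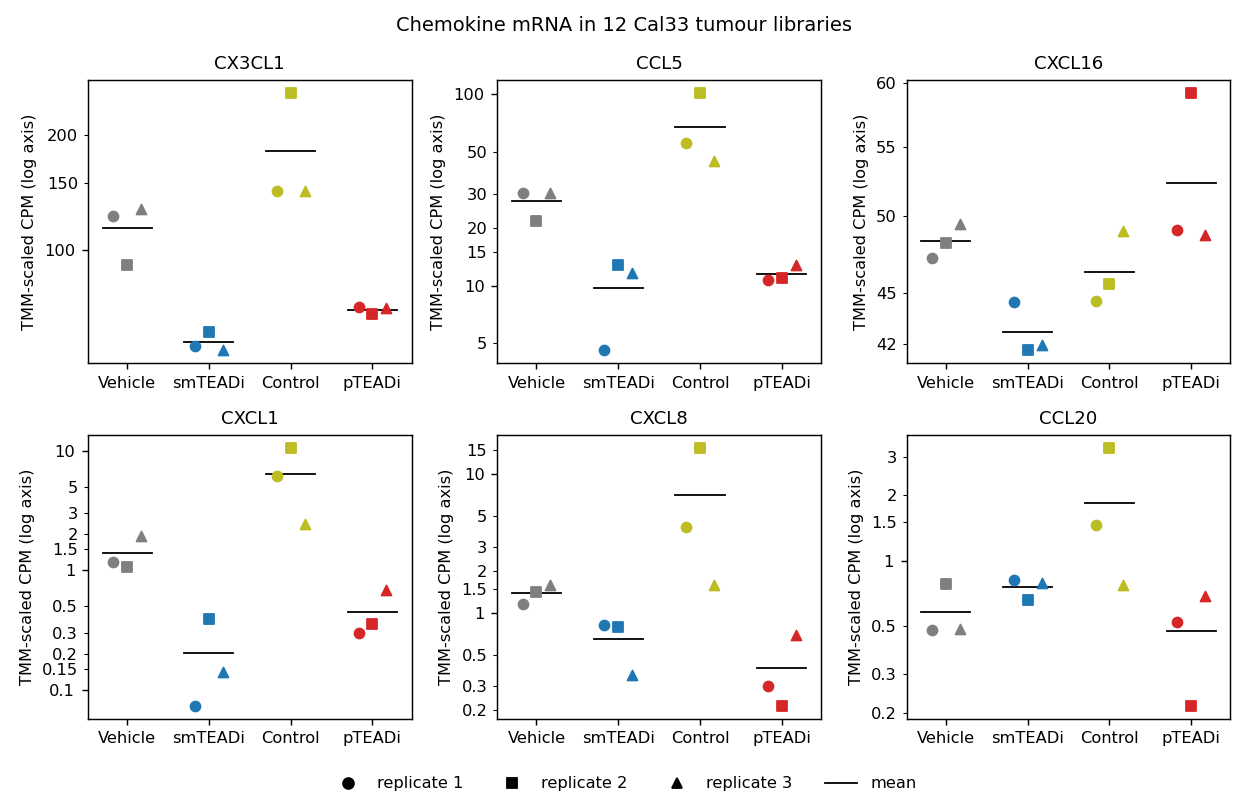
TMM-scaled CPM (log axis) of the 6 tested chemokines in each of 12 libraries, by group; marker shapes give the replicate number and lines the group mean. CX3CL1, CCL5, CXCL1 and CXCL8 lie lower in every treated library than in any library of their own control group, and Control 2 is the highest library for all of them except CXCL16.

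CX3CL1 (ENSG00000006210.7, GRCh38 chromosome 16, 57372477 to 57385044, plus strand) was the member with most counts. It had 122, 91.0 and 128 CPM in Vehicle 1, 2 and 3 and 55.9, 60.8 and 54.4 CPM in smTEADi 1, 2 and 3. In the second experiment it had 143, 258 and 142 CPM in Control 1, 2 and 3 and 70.5, 67.8 and 70.4 CPM in pTEADi 1, 2 and 3. The groups did not overlap in either experiment, and the treated libraries differed little among themselves. The log2 fold change was -0.997 ± 0.14 (SE) with SW-682 (adjusted p = 0.0365) and -1.38 ± 0.19 with pTEADi (adjusted p = 0.000429). Without Control 2, at 1.81 times the mean of the other Control libraries, the second value was -1.04 and stayed past the threshold.

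CXCL16 (ENSG00000161921.17, chromosome 17, 4733533 to 4739928, minus strand), the other membrane-anchored chemokine, stayed within a narrow range of 41.6 to 59.2 CPM over the 12 libraries. It had 47.2, 48.2 and 49.5 CPM with Vehicle and 44.5, 41.6 and 41.9 CPM with SW-682, which do not overlap, and a log2 fold change of -0.18 ± 0.09 (adjusted p = 0.226). With 44.5, 45.6 and 49.0 CPM in Control and 49.1, 59.2 and 48.7 CPM with pTEADi the groups overlapped, and the log2 fold change was 0.18 ± 0.10 (adjusted p = 0.232). Its fitted values thus had opposite signs in the 2 experiments and neither passed. Control 2, high for the other members, was at 0.975 times the mean of Control 1 and 3 for CXCL16.

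CCL5 (ENSG00000271503.6, chromosome 17, 35871491 to 35880793, minus strand) attracts T cells, monocytes and eosinophils. It had 30.5, 21.9 and 30.4 CPM with Vehicle and 4.60, 12.9 and 11.7 CPM with SW-682. Control 1, 2 and 3 had 55.7, 102 and 44.8 CPM, and pTEADi 1, 2 and 3 had 10.7, 10.99 and 12.9 CPM. Every treated library was below every control library of its experiment; among the treated, smTEADi 1 was lowest. The log2 fold change was -1.50 ± 0.32 with SW-682 (adjusted p = 0.0392) and -2.55 ± 0.26 with pTEADi (adjusted p = 6.65e-05), the smallest adjusted p of any member. Without Control 2 the latter was -2.12, and without smTEADi 1 the former was -1.16; both stayed past the threshold. Of the 100-base words of its reference transcript, 7.92% also occur in transcripts of other genes, so part of its reads may be shared. For each of the other 9 members this share was 0%. The expected counts of CCL5 were whole numbers in every library, and whether reads were shared was not tested.

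CCL20 (ENSG00000115009.13, chromosome 2, 227805739 to 227817564, plus strand), the ligand of CCR6, was low throughout. It had 7, 11 and 7 counts with Vehicle and 11, 10 and 11 with SW-682, which overlap (log2 fold change 0.37 ± 0.42, adjusted p = 0.598). It had 21, 46 and 11 counts in Control and 7, 3 and 10 with pTEADi, which do not overlap, and fell by 1.92 ± 0.59 on the log2 scale (adjusted p = 0.0329). This call was lost without Control 1 (adjusted p = 0.0598), Control 2 (-1.20, adjusted p = 0.167) or any single pTEADi library (adjusted p = 0.0646 to 0.140), and also with limma-voom (adjusted p = 0.0675).

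**Figure D3:**
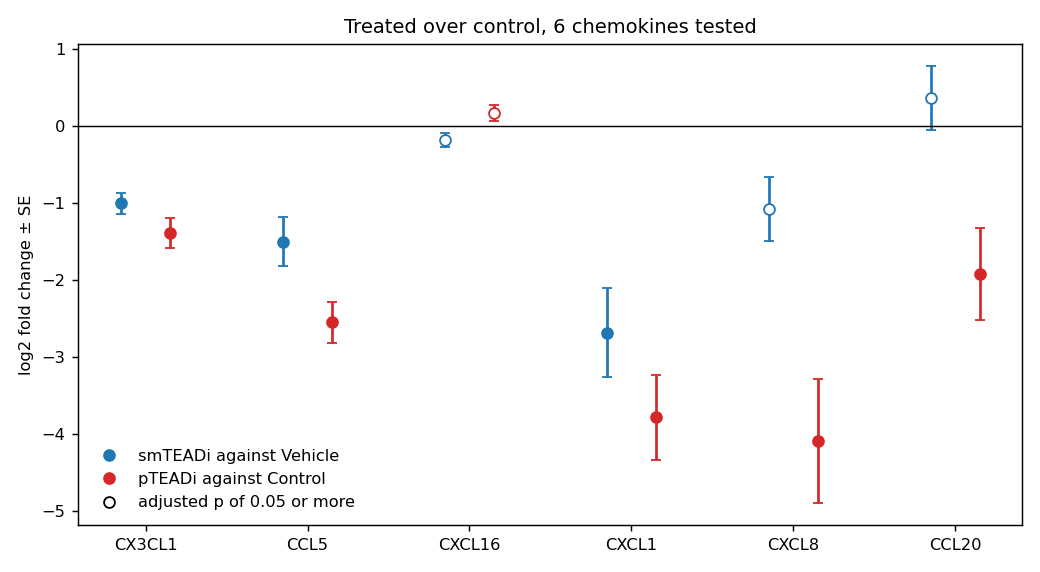
Log2 fold changes (treated over control, error bars ± SE of the fit) of the 6 tested chemokines with SW-682 (smTEADi against Vehicle) and with pTEADi against Control; open points have an adjusted p of 0.05 or more. CXCL16 lies nearest 0 in both, at -0.18 and 0.18, and CXCL8 has the lowest value with pTEADi, at -4.09.

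Among the ELR chemokines, CXCL1 and CXCL8 had counts to test. CXCL1 (ENSG00000163739.5, chromosome 4, 73869393 to 73871308, plus strand) had 17, 15 and 28 counts with Vehicle and 1, 6 and 2 with SW-682. It had 88, 147 and 35 counts in Control and 4, 5 and 10 with pTEADi. The groups did not overlap in either experiment. The log2 fold change was -2.68 ± 0.58 with SW-682 (adjusted p = 0.0400) and -3.78 ± 0.55 with pTEADi (adjusted p = 0.000545). The first rests on 9 counts in 3 treated libraries: it was -2.31 without smTEADi 1 (adjusted p = 0.0855) and -3.57 without smTEADi 2, and DESeq2 made no call for it. The second was -3.21 without Control 2.

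CXCL8 (ENSG00000169429.11, chromosome 4, 73740519 to 73743716, plus strand), which encodes interleukin 8, had 17, 20 and 23 counts with Vehicle and 11, 12 and 5 with SW-682. These groups did not overlap either, and the log2 fold change of -1.07 ± 0.41 did not pass (adjusted p = 0.131). With 60, 216 and 23 counts in Control and 4, 3 and 10 with pTEADi it fell by 4.09 ± 0.81 on the log2 scale (adjusted p = 0.00329). The Control libraries themselves were spread widely, from 1.61 to 15.4 CPM. Control 2 held 72.2% of the Control counts, and without it the log2 fold change was -2.80, still past the threshold.

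CXCL2 (ENSG00000081041.9, chromosome 4, 74097040 to 74099196, minus strand) and CXCL3 (ENSG00000163734.4, chromosome 4, 74036589 to 74038807, minus strand) share 93.5% and 90.7% of the coding sequence of CXCL1 and 94.4% with each other. CXCL2 had 1, 2 and 0 counts with Vehicle, 0, 1 and 0 with SW-682, 1, 15 and 1 in Control and 2, 0 and 0 with pTEADi. CXCL3 had 2, 3 and 1, then 0, 1 and 2, then 0, 6 and 2, and then 1, 2 and 1 counts in the same order of groups. For both genes Control 2 was the highest library, with 88.2% of the Control counts of CXCL2 and 75.0% of those of CXCL3. Over the summed counts, CXCL2 with pTEADi was at 0.115 times Control (95% exact interval 0.0129 to 0.485), and without Control 2 it was at 0.659 times (0.0478 to 9.09). For CXCL3 the ratio was 0.490 (0.108 to 1.83), and without Control 2 it turned to 1.32 (0.189 to 14.6). With SW-682 the ratios were 0.320 (0.00609 to 3.98) for CXCL2 and 0.480 (0.0776 to 2.25) for CXCL3. Such intervals cover counting error only. No difference in CXCL3, and none in CXCL2 outside Control 2, was detectable at this depth. When the counts of CXCL1, CXCL2 and CXCL3 were added together, the sum was called lower in both comparisons, as CXCL1 was. In Control CXCL1 had 270 counts, CXCL2 17 and CXCL3 8, so the call of the sum mostly repeats that of CXCL1.

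The CXCR3 ligands were close to the limit of detection. CXCL10 (ENSG00000169245.6, chromosome 4, 76021118 to 76023497, minus strand) had 3, 5 and 2 counts with Vehicle and 0, 1 and 1 with SW-682. It had 4, 7 and 2 counts in Control and 0 in each pTEADi library. The treated libraries were lower than the controls in both experiments. With SW-682 the ratio of summed counts was 0.192 (0.0204 to 0.900). With pTEADi, 0 counts allow a level of up to 0.0702 CPM over the group (3 counts). That limit was 4.43-fold below the observed level in Control, or 3.03-fold without Control 2. Counting error in Control (13 counts, or 6 without Control 2) is not included in these 2 values. When the filter on low counts was left out, CXCL10 was called lower with pTEADi (adjusted p = 0.0315) and not with SW-682 (adjusted p = 0.443). CXCL11 (ENSG00000169248.13, chromosome 4, 76033682 to 76041415, minus strand) had 3, 2 and 1 counts with Vehicle and 1, 2 and 3 with SW-682, a ratio of 0.959 (0.256 to 3.59). It had 1, 8 and 2 counts in Control and 1, 0 and 0 with pTEADi, a ratio of 0.0890 (0.00207 to 0.612) that became 0.220 (0.00419 to 2.74) without Control 2.

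**Figure D4:**
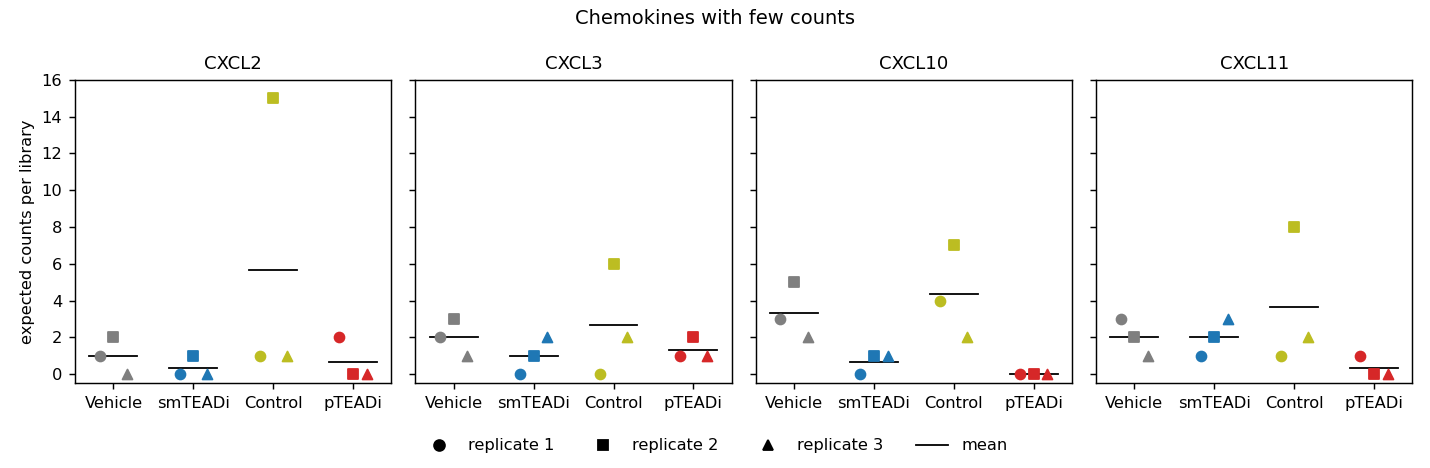
Expected counts per library of the 4 chemokines that did not pass the filter on low counts, by group; marker shapes give the replicate number and lines the group mean. Control 2 is the highest library of every panel, from 6 counts of CXCL3 to 15 of CXCL2, and CXCL10 is at 0 in all 3 pTEADi libraries.

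Whether the effects of the inhibitors differed was tested as the pTEADi effect minus the SW-682 effect. None of the 6 tested members passed with edgeR, DESeq2 or limma-voom, and over all 15460 genes tested 0.0129% were called with edgeR. At an unadjusted p under 0.05 there were 4 of the 6 members, and 1103 of the 15460 genes tested. The differences in log2 fold change were -3.02 ± 1.09 for CXCL8 (adjusted p = 0.609), -2.29 ± 0.80 for CCL20 (adjusted p = 0.598), -1.05 ± 0.46 for CCL5 (adjusted p = 0.685) and 0.36 ± 0.13 for CXCL16 (adjusted p = 0.610). CXCL1 (-1.10 ± 1.02) and CX3CL1 (-0.38 ± 0.27) were smaller against their errors. Without the filter on low counts CCL5 (adjusted p = 3.1e-05) and CXCL8 (adjusted p = 8.77e-05) passed.

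**Figure D5:**
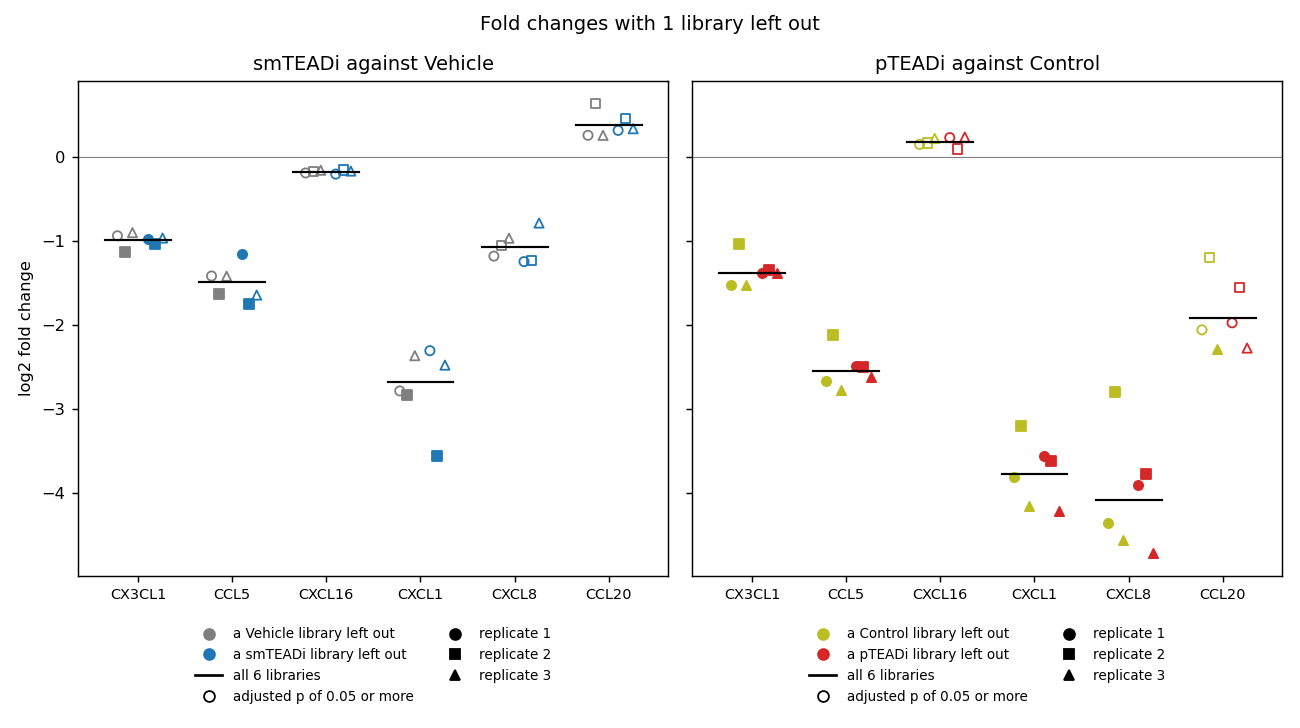
Log2 fold changes of the 6 tested chemokines with all 6 libraries (lines) and with each library left out in turn (points, coloured by the group of the library left out, shaped by its replicate number; open points have an adjusted p of 0.05 or more). No value crosses 0; with pTEADi, leaving out Control 2 gives the value nearest 0 for CX3CL1, CCL5, CXCL1, CXCL8 and CCL20.

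The calls with SW-682 sat near the threshold. CX3CL1, CCL5 and CXCL1 each lost their call without smTEADi 3 (adjusted p = 0.0518, 0.0528 and 0.0707), Vehicle 1 (0.134, 0.146 and 0.136) or Vehicle 3 (0.184, 0.184 and 0.196), and in these 3 fits no gene at all passed. The same holds for each gene called with SW-682 below.

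Of 36 other chemokine ligands in the tables, 20 had 0 counts in all 12 libraries, among them CXCL5, CXCL6, CXCL9 and CXCL12. Of 5 tested with SW-682, 1 rose and none fell, and of 6 tested with pTEADi, 3 rose and none fell; over all genes, 2.02% and 12.7% were called higher. CXCL14, a chemokine of normal squamous epithelium, averaged 495 CPM per kilobase in Control, where CCL5, the highest member by this measure, had 49.5. It went from 977 ± 376 CPM in Control to 1923 ± 125 CPM with pTEADi (0.98 ± 0.23, adjusted p = 0.00882), and with SW-682 its value was 0.31 ± 0.20 (adjusted p = 0.336). Control 2, highest for 9 of the 10 members, was lowest for CXCL14, at 547 CPM against 1245 and 1138 CPM. CXCL17, a mucosal chemokine, rose with SW-682 (1.25 ± 0.24, adjusted p = 0.0365) and with pTEADi (1.23 ± 0.31, adjusted p = 0.0123), the latter call being lost without pTEADi 2 or 3. CCL24 rose with pTEADi (1.33 ± 0.41, adjusted p = 0.0314), and this call was lost without Control 1, Control 2, pTEADi 2 or pTEADi 3.

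Receptors were scarce. Of 23 chemokine receptor genes 6 had no count in any library, CXCR4 among them, and 4 could be tested. CX3CR1 had 1 count in all 12 libraries together, CCR6 had 4 and CXCR3 had 3. None passed with SW-682. ACKR3, an atypical receptor that binds CXCL11 and CXCL12 and takes them up, fell with pTEADi from 75.2 ± 7.31 to 46.9 ± 0.565 CPM (-0.68 ± 0.09, adjusted p = 0.000379). CXCR2, the receptor of the ELR chemokines, did not pass (0.81 ± 0.57 with SW-682 and 0.96 ± 0.43 with pTEADi). None of the proteases and partners that shed or trim chemokines passed, of 5 tested with SW-682 and 4 with pTEADi. Over all genes, 5.5% were called with SW-682 and 26.3% with pTEADi. So few receptors and proteases cannot be set apart from these shares. ADAM10 had log2 fold changes of -0.12 ± 0.10 and 0.08 ± 0.10, and ADAM17 -0.02 ± 0.11 and -0.27 ± 0.11.

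Of 16 NF-kB factors and regulators, none passed with SW-682 (median -0.05), and with pTEADi 4 fell and 1 rose (median -0.24). These 5 of 16 are near the 26.3% called over all genes with pTEADi. With SW-682, 5.5% of all genes were called. TNFAIP3, a feedback inhibitor of NF-kB, fell by 1.71 ± 0.34 (adjusted p = 0.00338), or by 1.03 without Control 2, where it had 107 CPM against 41.8 and 34.9 CPM. RELB (-0.95 ± 0.22) and NFKB2 (-0.54 ± 0.15), both of the non-canonical pathway, fell as well; they were at -0.62 and -0.32 without Control 2, and NFKB2 lost its call without any single pTEADi library. NFKBIZ rose (0.42 ± 0.10), a call lost without Control 1 or pTEADi 2. The remaining call was NFKB1 (-0.27 ± 0.09), lost when any single library was left out. RELA, which encodes the main activating subunit, had log2 fold changes of 0.23 ± 0.12 with SW-682 and -0.12 ± 0.12 with pTEADi, neither past the threshold.

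Cytokines that induce chemokines in keratinocytes, and their receptors, split in direction. With SW-682, of 14 tested, IL1RN alone passed and rose (1.03 ± 0.22, adjusted p = 0.0401, or 0.67 without smTEADi 1). Over all genes, 5.5% were called with SW-682. IL1RN encodes the antagonist of the interleukin 1 receptor. With pTEADi, of 13 tested, 5 rose and 5 fell, where 12.7% of all genes rose and 13.6% fell. IL1B fell from 21.6 ± 14.0 to 2.66 ± 1.21 CPM (-3.02 ± 0.44, adjusted p = 0.000536) and IL1A by 1.97 ± 0.38 (adjusted p = 0.00302), while IL1RN rose from 182 ± 55.2 to 409 ± 39.8 CPM (1.17 ± 0.17, adjusted p = 0.000533) and the receptor gene IL1R1 rose (0.86 ± 0.15, adjusted p = 0.0018). The other calls were falls of IL36G (-2.27 ± 0.58), IL1RAP (-0.52 ± 0.11) and TLR2 (-0.67 ± 0.21) and rises of IL1RL2 (0.52 ± 0.18), IL17RC (0.40 ± 0.12) and IL17RE (0.51 ± 0.12). IL36G lost its call without pTEADi 3, IL17RC without Control 1, Control 3, pTEADi 1 or pTEADi 2, and TLR2 and IL1RL2 without Control 1, Control 2 or any pTEADi library. TNF had at most 3 counts in a library.

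Of 16 interferon signalling genes tested, 3 fell and 1 rose with SW-682, and 7 fell and 1 rose with pTEADi. Over all genes, 3.48% fell and 2.02% rose with SW-682, and 13.6% fell and 12.7% rose with pTEADi. The RNA sensor genes RIGI (-1.03 ± 0.22 and -1.70 ± 0.15) and IFIH1 (-0.62 ± 0.13 and -0.99 ± 0.12) and the transcription factor gene IRF7 (-0.67 ± 0.14 and -1.23 ± 0.17) fell in both. With SW-682 the IFIH1 call was also lost without smTEADi 1 or 2, and the IRF7 call without smTEADi 2. STAT2 (-0.32 ± 0.09) and IRF9 (-0.46 ± 0.10), which encode factors activated by interferons, fell with pTEADi, and STAT2 lost its call without Control 1, pTEADi 2 or 3. IRF1, an activator of CXCL10 and other chemokine genes, fell with pTEADi from 39.9 ± 8.34 to 19.7 ± 3.27 CPM (-1.02 ± 0.16, adjusted p = 0.000834). JAK1 rose with SW-682 (0.46 ± 0.11) and with pTEADi (0.33 ± 0.11). The JAK1 call was lost without any single library with SW-682, and without Control 1, Control 2 or any pTEADi library with pTEADi. IFNB1 had 1 count in all 12 libraries. Of 8 regulators of chemokine mRNA decay none passed with SW-682, and with pTEADi HNRNPD (-0.54 ± 0.09) and KHSRP (-0.27 ± 0.08) fell and RC3H1 rose (0.34 ± 0.11). Without Control 1, Control 2 or any single pTEADi library KHSRP and RC3H1 lost their calls. None of the list genes passed the test of the difference between the effects.

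The 12 leukocyte markers summed to 48.6 to 74.3 CPM in Control and 35.05 to 40.8 CPM with pTEADi, and to 37.8 to 46.8 CPM with Vehicle and 36.0 to 54.0 CPM with SW-682. Most of the Control sum was CD74, at 23.5 to 27.9 CPM, and CD68, with a mean of 21.5 CPM. Of 5 tested, none passed with SW-682. With pTEADi, CD74 (-0.59 ± 0.11) and CSF1R (-1.39 ± 0.41) fell, where 13.6% of all genes fell. The CSF1R call was lost without Control 2, pTEADi 2 or pTEADi 3. CD68 (-0.78 ± 0.29), CD14 (-0.04 ± 0.21) and ITGAM (0.12 ± 0.21) did not pass with pTEADi. Of the defining markers, MPO, NKG7, CSF3R and CD163 were at 0 in all 12 libraries, and PTPRC, which encodes CD45, had at most 1 count in a library. Their part in the chemokine values was not tested. The 5 endothelial markers summed to 13.1 to 21.6 CPM in Control and 29.5 to 40.5 CPM with pTEADi, and to 17.01 to 32.5 CPM with Vehicle and 35.2 to 60.7 CPM with SW-682. Nearly all of these sums was VWF, which rose with pTEADi from 15.6 ± 4.79 to 35.6 ± 5.59 CPM (1.19 ± 0.19), while PECAM1, CDH5 and TEK had group means of 0 to 0.163 CPM and KDR was at 0 throughout. The 7 fibroblast markers summed to 97.7 to 116 CPM in Control and 94.8 to 130.4 CPM with pTEADi, and to 76.3 to 90.9 CPM with Vehicle and 83.7 to 87.4 CPM with SW-682, and COL3A1 was at 0. COL1A1 made up most of these sums, with a mean of 102 CPM in Control and 109 CPM with pTEADi, and COL1A2, PDGFRA and PDGFRB had group means under 0.4 CPM. The 7 squamous carcinoma cell markers summed to 54479 to 67158 CPM with Vehicle and 37726 to 54660 CPM with SW-682, and to 55317 to 68606 CPM in Control and 59348 to 69855 CPM with pTEADi. EPCAM, an epithelial adhesion gene, was the 1 marker of these 7 that passed. It fell with SW-682 (-1.10 ± 0.20, adjusted p = 0.0365) and with pTEADi (-1.15 ± 0.15, adjusted p = 0.000248). Over all genes, 3.48% were called lower with SW-682 and 13.6% with pTEADi. The part of endothelial, fibroblast and squamous cell markers in the chemokine values was not tested. Whether such reads came from the tumour or the host is not given in the sources used here. Counts on GRCh38 may also miss host transcripts, so the number of host cells cannot be judged from these markers.

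The genes whose log2 CPM ran most like a member's were found among 10991 genes of 5 CPM or more over the 12 libraries, which share the treatment contrast and Control 2. Likeness is Pearson's r over 12 libraries, given as a description. CCL5 was most like the interferon-induced ISG15 (r = 0.989), IFITM3 (0.987) and IFITM1 (0.984). CXCL1 was most like IFITM3 (0.986), the complement gene CFB (0.980) and VEGFC, a lymphatic growth factor gene (0.978). CX3CL1 was most like the repressor gene TGIF2 (0.986), ANP32B (0.974) and VEGFC (0.972), and CXCL8 like the stress-response gene PPP1R15A (0.959), HAS3 (0.956) and the kinase gene LYN (0.952). CXCL16 had lower values, with TMEM63A (0.883), ZSWIM3 (0.840) and PHF12 (0.786). CCL20 had a mean under 1 CPM and was not searched.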

How the data were processed

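Poly-A selected RNA of 12 xenograft tumour libraries was sequenced in paired 150-base reads. The submitters' processing notes name STAR 2.7.9a, RSEM 1.3.1 and GRCh38, and the labels Gencode 38. The values the authors deposited are expected counts of genes without scaling, of which 6.77% to 7.27% were not whole. Strand setting and separation of host reads are not given in the sources used here. Symbols, exon lengths and positions came from Gencode 44 (GRCh38).

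After rounding, tests used edgeR 4.0.16 under R 4.3.3 (filterByExpr at a minimum count of 10, TMM, quasi-likelihood F test, two-sided, Benjamini-Hochberg over all genes, threshold 0.05). Treated libraries were set against the controls of the same experiment, and 1 fit of all 12 libraries gave the difference of effects. SE is the absolute log2 fold change over the root of F. CPM is TMM-scaled within each experiment, and sums of markers use the library total. Log2 CPM used a prior count of 2. Exact intervals of count ratios are conditional binomial at 95%.

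The members and the 11 other gene lists were chosen with earlier results of these data known. All members are named, with up to 4 called genes per list by smallest p, the 3 genes most like each member of 1 CPM or more, and further list genes picked for their role or, where a list held few calls, to complete them; these and the receptors and ligands named for low counts were chosen after their values were seen. CCL3L1 and CCL4L1 were not used here. Some genes counted in the lists are not reported here by name. Alternatives were RLE and upper-quartile scaling, other filters, DESeq2 1.42.0, limma-voom (limma 3.58.1), a threshold of 0.01, a spread over 4 groups, a replicate block, summed paralogs and leaving out each library. The fit was tested on simulated data.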

Additional observations from a re-analysis of the deposited data

How the results depend on the processing

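Over 18 log2 fold changes (6 tested members in 2 comparisons and their difference), 300 values under alternatives all kept the reported sign. Of these, 20 lost a call and 2 gained one. The other 278 kept their side of the threshold or had no adjusted p. CXCL1 with SW-682 under DESeq2 is among these 278, with no adjusted p and so no call. With SW-682, the 3 members called became 0 at a threshold of 0.01 and 0 with a replicate block, and 0 to 3 with 1 library left out. Under DESeq2, CX3CL1 and CCL5 kept their SW-682 calls and CXCL1 did not. With pTEADi the 5 became 4 to 5 with 1 library left out. For the difference 0 became 2 without the low-count filter. Over all genes, the 816 called with SW-682 became 0 at 0.01, 1893 with DESeq2, 2101 without the filter, 2303 with a spread over 4 groups, 0 with the replicate block and 0 to 1622 with 1 library left out. The 3864 called with pTEADi became 2138 at 0.01 and 2325 to 4379 with 1 library left out. The 2 called for the difference became 0 at 0.01, 43 with DESeq2, 377 without the filter, 0 with the replicate block and 0 to 20 with 1 library left out. The cause was not tested. Replicate numbers were not taken as pairs, since deviations of libraries with the same number correlated at -0.109 to 0.115 across genes; with the block, the pTEADi members called were 4, CCL20 losing its call (adjusted p = 0.0683). Depth limits CXCL2, CXCL3, CXCL10 and CXCL11, where single libraries held 0 to 15 counts, and the SW-682 value of CXCL1.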

Other observations

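The 2 control groups, both Cal33 tumours without an inhibitor, had separate ranges for some chemokines. CPM was scaled separately in the 2 experiments, and the experiment and the treatment of these groups cannot be told apart. CCL5 had 21.9 to 30.5 CPM with Vehicle and 44.8 to 102 CPM in Control, and CX3CL1 had 91.0 to 128 CPM and 142 to 258 CPM. CXCL1 had 1.06 to 1.93 CPM with Vehicle and 2.45 to 10.5 CPM in Control. For these 3 genes the groups did not overlap. CXCL8 had 1.17 to 1.59 CPM and 1.61 to 15.4 CPM, but Vehicle 3 and Control 3 each held 23 counts, so that gap rests on the separate scaling. CCL20 and CXCL16 did overlap, the latter with 47.2 to 49.5 CPM and 44.5 to 49.0 CPM. The treated groups overlapped for CCL5, with 4.60 to 12.9 CPM with SW-682 and 10.7 to 12.9 CPM with pTEADi, and for CXCL8. They did not overlap for CX3CL1, with 54.4 to 60.8 CPM and 67.8 to 70.5 CPM, or for CXCL16, with 41.6 to 44.5 CPM and 48.7 to 59.2 CPM. None of these differences between experiments was tested.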
